A study of Homo sapiens with 12 samples.

Results

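Chemokines are small secreted proteins that steer cell movement through receptors coupled to G proteins of the Gi class, and in the bone marrow they help to hold plasma cells, myeloma cells and osteoclast precursors in place. Described here are 7 genes of this system that are often studied in multiple myeloma, of 25680 gene symbols in the tables. They are the ligands CCL3 and CCL4 and the receptors CCR1, CCR2, CCR10, CXCR4 and CX3CR1. They were chosen by name, and every table row with one of these symbols was taken; all 7 were present.

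RNA of MM.1S and U266, 2 human cell lines of multiple myeloma, was sequenced after 6 h with 6 µM IT848, which the submitters describe as an NF-kB inhibitor, or with its solvent DMSO. The 4 groups were MM.1S with IT848, MM.1S with DMSO, U266 with IT848 and U266 with DMSO, with 3 libraries each and RPMI medium with serum for all. Each line comes from 1 patient's tumour, so a difference between the lines is a difference between 2 models. Whether the 3 libraries of a group were separate cultures is not given in the sources used here, and p-values then measure only the spread between these libraries.

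CCL3, also called MIP-1 alpha, is made by myeloma cells and is known to promote the formation of osteoclasts, and CCL4, or MIP-1 beta, is its close relative. CCL3 binds CCR1. CXCR4 binds CXCL12 and is the main receptor for homing to the marrow, CCR2 binds CCL2, CCR10 binds CCL27 and CCL28 and is found on plasma cells that go to mucosal tissue, and CX3CR1 binds CX3CL1. NF-kB is a known activator of several chemokine genes.

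CCL3 and CCL4 have near-identical copies in the genome, CCL3L1, CCL3L3, CCL4L1 and CCL4L2, and the sequences bear on how far their reads can be separated. The coding sequences of CCL3 and CCL3L1 shown here are from the GENCODE annotation of GRCh38, spliced and written 5′ to 3′, with the stop codon left out and with the bases that differ between them in capitals. CCL3 lies at chr17:36088675-36090058 on the minus strand and its copy CCL3L1 at chr17:36195289-36196673 on the minus strand, where RefSeq names the gene CCL3L3.
CCL3: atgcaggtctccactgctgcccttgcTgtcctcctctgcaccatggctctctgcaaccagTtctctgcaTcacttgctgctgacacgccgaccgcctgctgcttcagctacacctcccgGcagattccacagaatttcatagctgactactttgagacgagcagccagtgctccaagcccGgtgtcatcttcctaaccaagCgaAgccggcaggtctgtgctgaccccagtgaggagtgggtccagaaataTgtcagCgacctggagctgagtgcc
CCL3L1: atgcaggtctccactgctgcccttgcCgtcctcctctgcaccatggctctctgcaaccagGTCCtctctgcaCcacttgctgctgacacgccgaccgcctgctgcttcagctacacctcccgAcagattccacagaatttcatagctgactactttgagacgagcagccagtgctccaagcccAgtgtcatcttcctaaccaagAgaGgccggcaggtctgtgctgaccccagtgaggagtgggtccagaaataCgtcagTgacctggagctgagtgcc
The pair differed at 9 aligned bases plus a gap of 3, with 95.7% identity and a longest shared run of 60 bases. No stretch of 150 coding bases, the read length the submitters give, was the same in both. How reads with several alignments were counted is not given in the sources used here, and an antisense gene, CCL3-AS1, overlaps CCL3 in RefSeq, so values of the 2 ligands are uncertain to that extent.

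The 250 bases before the start site are shown for CCL3 and its copy CCL3L3, since both genes moved in MM.1S, and for CXCR4, the member with the lowest adjusted p among the receptors there. They are from RefSeq on GRCh38.p14 and are written 5′ to 3′ on the gene's strand, minus in all 3. In the CCL3 pair the capitals mark bases that differ, and in CXCR4 they mark a match to the heat shock motif GAANNTTC. The windows are chr17:36090144-36090393 for CCL3, chr17:36196759-36197008 for CCL3L3 and chr2:136118150-136118399 for CXCR4.
CCL3: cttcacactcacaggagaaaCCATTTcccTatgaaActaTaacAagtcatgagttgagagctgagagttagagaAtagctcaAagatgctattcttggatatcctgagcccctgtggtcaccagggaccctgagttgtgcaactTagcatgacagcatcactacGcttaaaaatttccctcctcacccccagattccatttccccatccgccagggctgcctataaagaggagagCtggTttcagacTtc
CCL3L3: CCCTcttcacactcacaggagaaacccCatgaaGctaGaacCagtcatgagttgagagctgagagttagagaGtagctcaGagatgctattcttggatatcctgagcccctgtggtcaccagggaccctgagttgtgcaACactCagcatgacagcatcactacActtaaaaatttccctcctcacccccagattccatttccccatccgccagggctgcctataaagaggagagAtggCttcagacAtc
CXCR4: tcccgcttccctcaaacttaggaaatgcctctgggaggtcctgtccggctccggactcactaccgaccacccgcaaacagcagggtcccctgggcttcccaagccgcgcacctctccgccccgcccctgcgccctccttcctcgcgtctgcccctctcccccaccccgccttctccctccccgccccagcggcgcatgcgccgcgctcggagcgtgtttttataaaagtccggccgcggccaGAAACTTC
The CCL3 and CCL3L3 windows shared 91.0% of 256 aligned positions. Each window was searched on both strands for 3 motifs, with N as any base: GGGNNNNNCC for kappa B, TGANNNNGC for the antioxidant response and GAANNTTC for heat shock. They were found in 54.4%, 35.2% and 5.78% of the 35116 RefSeq windows of this length. The CCL3 window shown and the single windows of CCR1 and CCR2 held none of the 3. The CCL3L3 window held 1 kappa B match, beginning 233 bases before the start site, and the CXCR4 window 1 heat shock match, beginning 8 bases before it. Other listed start sites of CCL3, CXCR4 and CX3CR1 held kappa B matches, such as the second of CX3CR1 with 2, and no window was listed for CCL4 or CCR10. Antioxidant response matches lay before the second start site of CXCR4, with 2, and of CX3CR1, with 1. No 2 matches overlapped. A match is a run of letters and not a shown binding site.

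Levels are given as CPM, the counts scaled to library size with the TMM method, as mean ± SD of 3 libraries. Reads had been counted for every transcript they overlap, and counts were summed per gene. The sum repeats reads in genes with several transcripts, which were 4 for CX3CR1 and 2 each for CXCR4 and CCR2. Levels of different genes are compared only by the deposited TPM of the most counted transcript, which accounts for length. Library totals were 50627690 to 72039748 counts, and 22887470 to 32913398 with 1 transcript per gene. A gene was called changed at an adjusted p below 0.05 by edgeR's quasi-likelihood test across 16782 genes.

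The plasma cell identity of both lines was checked first. All 9 plasma cell markers were above 1 CPM in every group, with summed levels of 6260 to 6470 CPM in MM.1S with IT848, 6550 to 6630 in MM.1S with DMSO, 2770 to 2860 in U266 with IT848 and 3210 to 3400 in U266 with DMSO. The lines carried their known genes: MAF, a transcription factor overexpressed in MM.1S, had 885 ± 53.6 CPM in MM.1S with DMSO and 36.6 ± 0.960 in U266 with DMSO, and CCND1, which encodes cyclin D1, 4.85 ± 1.23 and 506 ± 2.79 CPM in the same groups. Myeloid markers, whose cells also use CCR1, CCR2 and CX3CR1, summed to 1.82 to 2.43 CPM in MM.1S with IT848, 1.63 to 2.08 in MM.1S with DMSO, 5.03 to 6.83 in U266 with IT848 and 4.56 to 5.60 in U266 with DMSO. Of the 9, FCN1 was at 0 in all 12 libraries and LYZ was at most 0.0569 CPM. CSF1R and ITGAM were at 2.23 to 3.94 and 1.38 to 2.01 CPM in U266 libraries, and at most 0.359 and 0.721 CPM in MM.1S. S100A9 lay the other way, at 0.548 to 0.987 CPM in MM.1S and at most 0.0168 CPM in U266. The part of these markers in the receptor levels was not tested. In 2 libraries a small share of reads came from genes of the other line: IT848 replicate 1 of U266 held 10 MM.1S genes at 0.897% of their MM.1S level, and DMSO replicate 2 of MM.1S held 35 U266 genes at 0.431% of their U266 level. The other U266 libraries with IT848 had at most 0.0986%, and the other MM.1S libraries with DMSO at most 0.0691%. The MM.1S genes were chosen for at most 6 counts over the U266 DMSO libraries together. The U266 genes were chosen likewise over the MM.1S IT848 libraries. Low shares in those 2 groups were thus set by the choice and do not show them free of such reads. Calls of the genes described here that change without the 2 libraries named are given beside them.

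**Figure D1:**
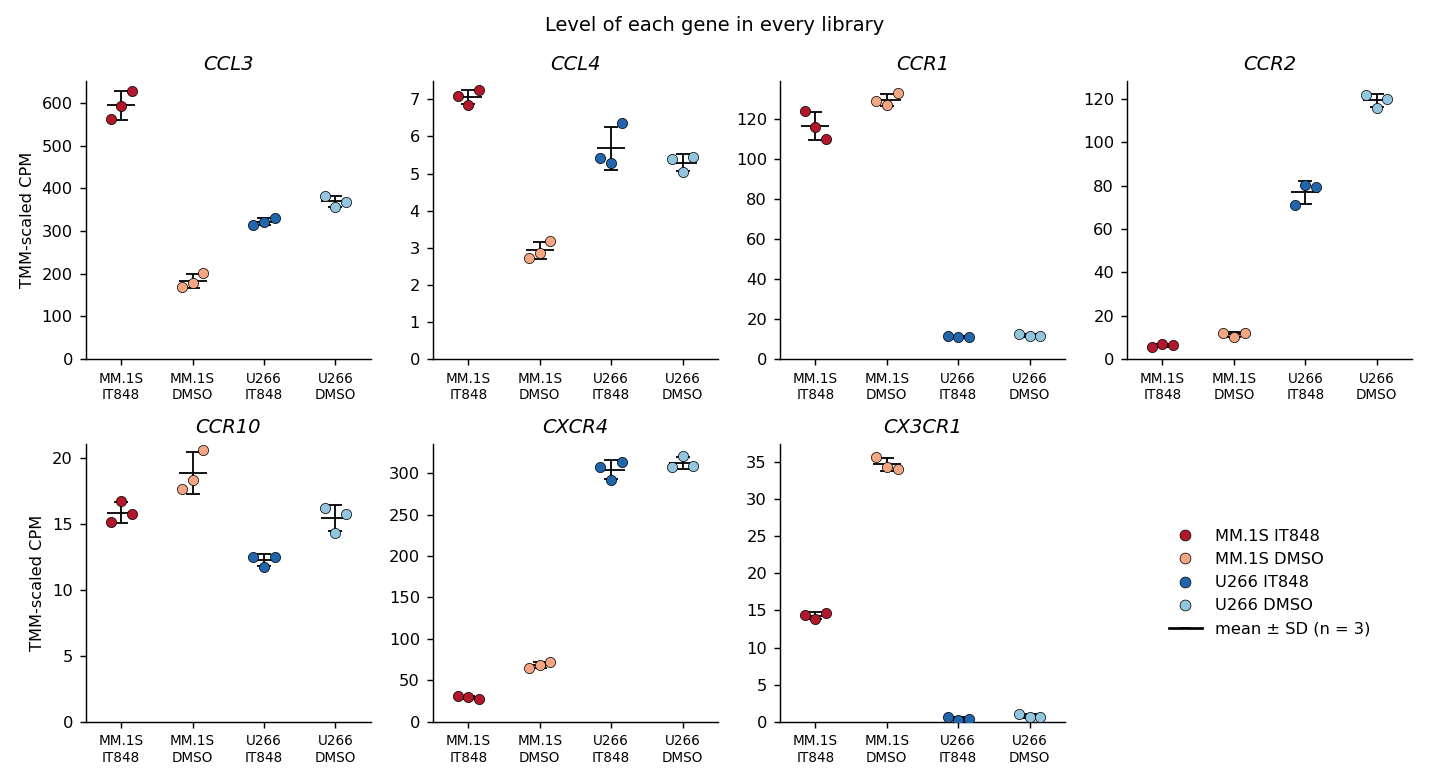
TMM-scaled CPM of each of the 7 genes (vertical axis, from 0 and different in each panel) in every library of the 4 groups (horizontal axis); points are libraries and bars the mean ± SD of 3. In MM.1S the IT848 and DMSO libraries are apart for all 7 genes, while in U266 those of CCL4, CCR1, CXCR4 and CX3CR1 overlap.

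In MM.1S, IT848 was accompanied by higher ligand and lower receptor transcripts. All 7 genes changed, 2 up and 5 down, and the IT848 and DMSO libraries did not overlap for any of them. Among all genes tested in this comparison, 38.3% were called, 18.7% up and 19.6% down, and for 47.2% the libraries did not overlap. In bulk RNA, fewer expressing cells and less RNA per cell cannot be told apart.

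CCL3 rose most. It had 562, 592 and 628 CPM in the IT848 libraries of MM.1S, against 169, 178 and 202 CPM in the DMSO libraries. Every IT848 library lay far above every DMSO library, and the change was 3.25-fold (log2 fold change 1.70 ± 0.06 SE; adjusted p 7.2e-11, edgeR's quasi-likelihood test). CCL4 was counted much less, with 7.09, 6.85 and 7.25 CPM with IT848, against 2.73, 2.87 and 3.18 CPM with DMSO. It too was apart in all libraries and rose 2.42-fold (1.27 ± 0.10; adjusted p 2.23e-07 by the same test).

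Of the receptors, CXCR4 and CX3CR1 fell most in MM.1S. CXCR4 had 30.7, 29.7 and 27.8 CPM with IT848, against 65.3, 69.0 and 72.4 CPM with DMSO, so the treated libraries held less than any control library. The log2 fold change was −1.23 ± 0.05 (adjusted p 3.56e-10, edgeR's quasi-likelihood test), and over the 22 alternative settings it stayed between −1.30 and −1.18. CX3CR1, the fractalkine receptor, had 14.4, 13.8 and 14.7 CPM with IT848, against 35.7, 34.4 and 34.0 CPM with DMSO. This fall was of like size (−1.28 ± 0.11; adjusted p 6.3e-07), and by 1 transcript it rested on 194 to 205 reads per IT848 library and 436 to 634 per DMSO library.

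CCR2, the receptor for CCL2, fell less, to 5.71, 6.78 and 6.40 CPM with IT848, against 12.2, 10.2 and 11.8 CPM with DMSO (−0.86 ± 0.08; adjusted p 2.28e-06, edgeR's quasi-likelihood test). CCR10 and CCR1 differed little. CCR10 had 15.1, 16.7 and 15.7 CPM with IT848, against 17.6, 18.3 and 20.6 CPM with DMSO, a fall of 0.25 ± 0.07 on the log2 scale (adjusted p 0.0145 by edgeR's quasi-likelihood test). That call was lost without DMSO replicate 3 (adjusted p 0.0757) or IT848 replicate 1 (0.0698) of MM.1S. CCR1, a receptor for CCL3, had 124, 116 and 110 CPM with IT848, against 129, 127 and 133 CPM with DMSO, and its log2 fold change of −0.15 ± 0.05 was just called (adjusted p 0.0275). It was not called in a fit of MM.1S alone (adjusted p 0.0661 by edgeR), without MM.1S DMSO replicate 1 (0.0695) or 3 (0.0889), without MM.1S IT848 replicate 2 (0.0849) or 3 (0.136), or without the 2 libraries with reads of the other line (0.0539). Over all genes tested, the median size of a log2 fold change in MM.1S was 0.23 in either direction, a size near that of both genes.

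Markers of T and NK cells, which also make CCL3 and CCL4, moved with these rises in MM.1S. Their 11 genes summed to 26.1 to 27.6 CPM with IT848 and 8.66 to 9.95 CPM with DMSO, and 10 or more were detected in each group. The sum was mostly NCAM1, a gene that myeloma cells also express, at 22.3 to 24.2 CPM with IT848 and 5.55 to 6.67 CPM with DMSO. CD3D and CD3G, of the T cell receptor complex, were at most 0.103 CPM with IT848 and 0.119 CPM with DMSO, while CD3E was at 0.804 to 1.06 CPM with IT848 and 0.620 to 1.23 CPM with DMSO, and the NK gene KLRD1 was at most 0.0530 CPM with IT848 and at 0 with DMSO. Stromal markers, all 7 detected and none at 0, summed to 25.7 to 31.4 CPM with IT848 and 17.3 to 22.7 CPM with DMSO, and erythroid markers, with HBA2 at 0 in both groups, to 4.22 to 5.43 CPM with IT848 and 2.19 to 2.28 CPM with DMSO. Of the 9 plasma cell markers, SDC1, IRF4, XBP1, PRDM1, CD38 and POU2AF1 were lower in every IT848 library of MM.1S than in any DMSO library, and so moved with the receptors. SDC1, the surface proteoglycan syndecan, was at 314 to 321 CPM with IT848 and 646 to 662 CPM with DMSO, and IRF4, a transcription factor that myeloma cells depend on, at 818 to 920 CPM with IT848 and 1220 to 1340 CPM with DMSO. SLAMF7, a surface receptor of plasma cells, made up the largest part of the sum and lay the other way, at 3680 to 3880 CPM with IT848 and 2790 to 2800 CPM with DMSO. TNFRSF17 was also higher, at 118 to 150 CPM with IT848 and 102 to 115 CPM with DMSO, and MZB1 overlapped between the groups. The part of all these markers in the chemokine results was not tested.

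**Figure D2:**
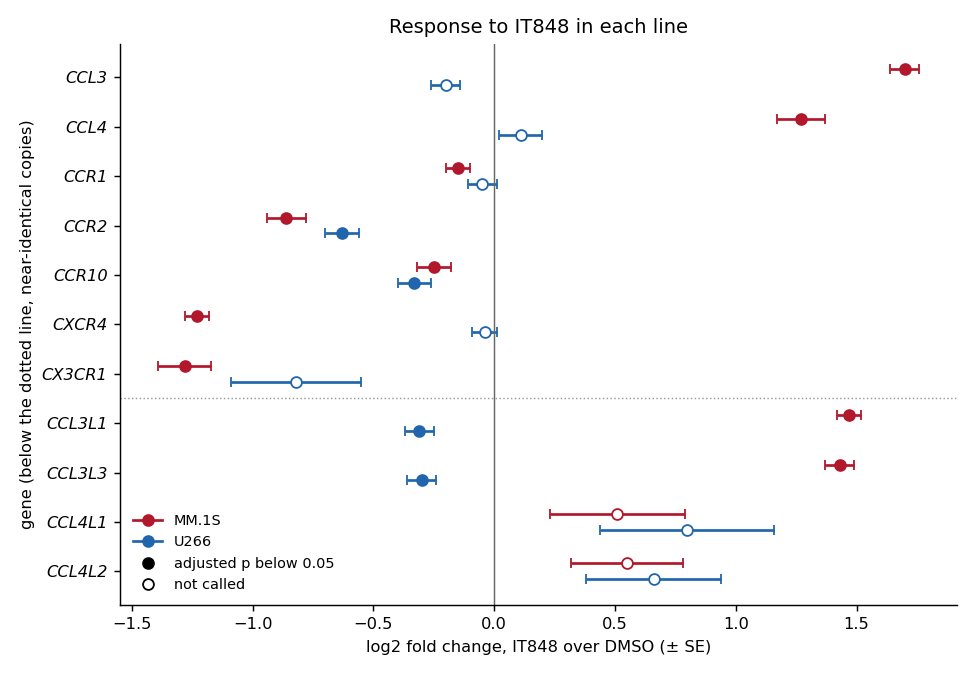
Log2 fold change of IT848 over DMSO (horizontal axis, ± SE) for the 7 genes and, under the dotted line, the near-identical copies of CCL3 and CCL4, in MM.1S (red) and U266 (blue); filled points passed an adjusted p of 0.05 by edgeR. CCL3, CCL4 and CXCR4 lie far apart between the lines, and CCR2 and CCR10 are below 0 in both.

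In U266, 2 of the 7 genes changed, CCR2 and CCR10, and both fell. In this comparison 9.01% of all genes tested were called, 4.03% up and 4.98% down, and libraries did not overlap for 28.9%, against 3 of the 7 members. CCR2 had 70.9, 80.3 and 79.4 CPM in the IT848 libraries, against 122, 116 and 120 CPM in the DMSO libraries, a change of −0.63 ± 0.07 on the log2 scale (adjusted p 2.06e-05, edgeR's quasi-likelihood test). All IT848 libraries lay below all DMSO libraries, and the call held in all 22 alternatives. CCR10 had 12.5, 11.7 and 12.5 CPM with IT848, against 16.2, 14.3 and 15.7 CPM with DMSO (−0.33 ± 0.07; adjusted p 0.0104). It was not called without U266 DMSO replicate 1 (adjusted p 0.0614 by edgeR) or 3 (0.0567) or without U266 IT848 replicate 2 (0.0606).

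Markers moved in U266 too. Stromal markers, all 7 detected, summed to 37.1 to 46.6 CPM with IT848 and 29.9 to 34.9 CPM with DMSO, with no overlap. The sums of the T and NK cell, myeloid and erythroid markers overlapped between the groups, such as 13.4 to 14.7 CPM with IT848 and 14.3 to 15.6 CPM with DMSO for T and NK cells. Of the 9 plasma cell markers, 7 were lower in every IT848 library than in any DMSO library, among them SDC1, at 726 to 746 CPM with IT848 and 1020 to 1100 CPM with DMSO, while SLAMF7 was higher, at 876 to 926 CPM with IT848 and 649 to 654 CPM with DMSO. Their part in the falls of CCR2 and CCR10 was not tested.

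CCL3 missed the threshold in U266. It had 314, 322 and 330 CPM with IT848, against 382, 357 and 368 CPM with DMSO. The libraries did not overlap, and the log2 fold change was −0.20 ± 0.06 with a 95% interval of −0.32 to −0.07 (adjusted p 0.0530, edgeR's quasi-likelihood test). The call depended on the setting: 11 of 22 alternatives called CCL3 lower, among them DESeq2 (adjusted p 0.0198) and 1 transcript per gene (0.0281), and the estimate stayed between −0.24 and −0.17. Of those 11, 4 left out an MM.1S library (DMSO replicate 1 or 3, IT848 replicate 1 or 3), with adjusted p of 0.0183 to 0.0450.

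The other 4 genes were not called in U266. For CXCR4, CCL4 and CCR1 the intervals bound how large a change these data allow. CXCR4 had 307, 292 and 314 CPM with IT848, against 308, 321 and 309 CPM with DMSO, with a log2 fold change of −0.04 and a 95% interval of −0.14 to 0.06 (adjusted p 0.739, edgeR's quasi-likelihood test). CCL4 had 5.43, 5.28 and 6.35 CPM with IT848, against 5.40, 5.04 and 5.44 CPM with DMSO (interval −0.09 to 0.30). CCR1 had 11.6, 11.2 and 10.9 CPM with IT848, against 12.4, 11.4 and 11.3 CPM with DMSO (interval −0.18 to 0.07). For these 3 genes the libraries of both groups overlapped.

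CX3CR1 was close to the limit of detection in U266. By 1 transcript, the IT848 libraries held 10, 4 and 7 reads and the DMSO libraries 15, 10 and 10. The log2 fold change of −0.82 ± 0.27, with a wide 95% interval of −1.4 to −0.25, was not called (adjusted p 0.0749, edgeR's quasi-likelihood test). IT848 replicate 1, the library with reads of MM.1S, held the most reads of its group, and at its share of foreign reads 0.128 to 0.311 of its 0.671 CPM would come from MM.1S. Without it the log2 fold change was −1.22 and was called (adjusted p 0.0111 by edgeR, and 0.0170 without both libraries with foreign reads), and DESeq2 also called it (0.00136). These 3 settings used the sums, which repeat each read over 4 transcripts. The other 19 alternatives did not call it, with adjusted p of up to 0.302 by edgeR. With 1 transcript per gene and the ligand copies summed, adjusted p was 0.189 by edgeR.

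The responses of the 2 lines were compared directly by the difference of their log2 fold changes, MM.1S minus U266. It was called for 3 of 7 genes, 2 positive and 1 negative, against 17.4% of all genes tested, 8.49% positive and 8.94% negative. For CCL3 it was 1.90 ± 0.08 (adjusted p 6.29e-09), for CCL4 1.17 ± 0.13 (5.25e-05) and for CXCR4 −1.19 ± 0.07 (7.91e-08), all by edgeR's quasi-likelihood test. The difference was not called for CX3CR1 (−0.45, 95% interval −1.09 to 0.18), CCR1 (−0.10, −0.27 to 0.07) and CCR10 (0.08, −0.14 to 0.31). For CCR2 it was −0.23 ± 0.11 (adjusted p 0.156 by edgeR), and it was called without the 2 libraries with reads of the other line (−0.34, adjusted p 0.0397). The other 20 alternatives did not call the CCR2 difference. With 1 transcript per gene and the ligand copies summed it was −0.14 (adjusted p 0.359 by edgeR).

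The copies of CCL3 followed CCL3 in MM.1S. CCL3L1 had 44.5, 47.0 and 46.7 CPM with IT848, against 16.1, 17.2 and 16.5 CPM with DMSO, and rose by 1.47 ± 0.05 on the log2 scale (adjusted p 6.82e-11, edgeR's quasi-likelihood test). In U266 it fell by 0.31 ± 0.06 (adjusted p 0.00351), with 7.13, 7.01 and 7.55 CPM with IT848, against 8.75, 8.98 and 9.21 CPM with DMSO. CCL3L3 gave similar values, 1.43 ± 0.06 in MM.1S and −0.30 ± 0.06 in U266 (adjusted p 0.00583), but it is no separate evidence, since the second of 2 entries of its coding transcript had the same count as that of CCL3L1 in all 12 libraries. With 1 transcript per gene neither copy was called in U266 (adjusted p 0.136 and 0.145 by edgeR). That setting kept the transcript most counted over all 12 libraries, with 48 to 81 reads for CCL3L1 and 38 to 65 for CCL3L3 per U266 library. It left out the first entry of CCL3L1, with 314 to 441 reads there, so it says little about the fall in U266.

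The entries of the copies were used differently by the lines. The second entry of CCL3L1 held 1029, 1141 and 1044 reads in MM.1S with IT848, against 448, 354 and 371 with DMSO, and 38, 41 and 54 reads in U266 with IT848, against 41, 65 and 59 with DMSO. The first entry held 392, 384 and 314 reads in MM.1S with IT848, against 220, 137 and 160 with DMSO, and 339, 314 and 422 reads in U266 with IT848, against 391, 401 and 441 with DMSO. Reads of the second entry were thus rare in U266, and those of the first were counted in both lines. The copy transcript most counted over all 12 libraries together had 3.33 to 4.19% of the CCL3 count in MM.1S libraries and 0.242 to 0.372% in U266 libraries. It was not the most counted one in U266, where the first entry of CCL3L1 held 314 to 441 reads and CCL3 18705 to 23891.

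For CCL4 the copies matter more. The most counted copy transcript had 9.69 to 12.2% of the CCL4 count in MM.1S with IT848, 13.4 to 26.2% in MM.1S with DMSO, 4.01 to 5.66% in U266 with IT848 and 2.68 to 3.91% in U266 with DMSO. CCL4L1 and CCL4L2 were not called in either line, with log2 fold changes of 0.51 ± 0.28 and 0.55 ± 0.23 in MM.1S and 0.80 ± 0.36 and 0.66 ± 0.28 in U266. CCL4L2 was called in MM.1S without MM.1S DMSO replicate 2 (adjusted p 0.0135 by edgeR), without U266 IT848 replicate 3 (0.0367) and without the 2 libraries with reads of the other line (0.00995). With CCL4 and its copies summed over 1 transcript per gene, the rise in MM.1S was 1.11 (adjusted p 1.67e-08 by edgeR) and the difference between the lines' responses 0.96 (4.18e-05). Summed over all transcripts, which repeats each read of a copy many times, the rise was 0.84 (0.000406) and the difference 0.56 (0.0740), no longer called.

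Under DMSO the lines differed in all 7 genes, and for all 7 the libraries did not overlap. This is set against 82.6% of all genes tested that were called, 40.6% higher and 42.1% lower in MM.1S, and 84.7% without overlap. CCR1, CX3CR1 and CCR10 were higher in MM.1S and CCL3, CCL4, CCR2 and CXCR4 lower. CCR1 had 130 ± 3.03 CPM in MM.1S and 11.7 ± 0.570 in U266, 11.1-fold more (log2 fold change 3.47 ± 0.06; adjusted p 4.55e-16, edgeR's quasi-likelihood test). CX3CR1 had 34.7 ± 0.868 CPM in MM.1S and 0.794 ± 0.254 in U266, 44.1-fold more. CCR10 was only 1.22-fold higher in MM.1S, at 18.8 ± 1.61 CPM in MM.1S and 15.4 ± 0.963 in U266 (adjusted p 0.00180 by edgeR).

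CCR2 had 11.4 ± 1.05 CPM in MM.1S and 119 ± 3.24 in U266, a log2 fold change of −3.38 ± 0.08 (adjusted p 7.74e-15, edgeR's quasi-likelihood test). CXCR4 had 68.9 ± 3.54 CPM in MM.1S and 312 ± 7.45 in U266 (−2.18 ± 0.05; adjusted p 1.08e-14). CCL3 was at 183 ± 16.8 CPM in MM.1S and 369 ± 12.4 in U266 (−1.01 ± 0.06). CCL4, at 2.93 ± 0.228 CPM in MM.1S and 5.29 ± 0.221 in U266 (−0.86 ± 0.10), was lower in MM.1S in 21 of 22 alternatives. With the copies summed over 1 transcript per gene it was −0.52 (adjusted p 7.28e-05 by edgeR). With the copies summed over all their transcripts, which repeats each read of a copy many times, the sign turned (0.28, adjusted p 0.0984). CCR1 and CCR2, which differ in opposite directions here, lie in 1 receptor cluster on chromosome 3, where RefSeq places CCR3 between them.

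**Figure D3:**
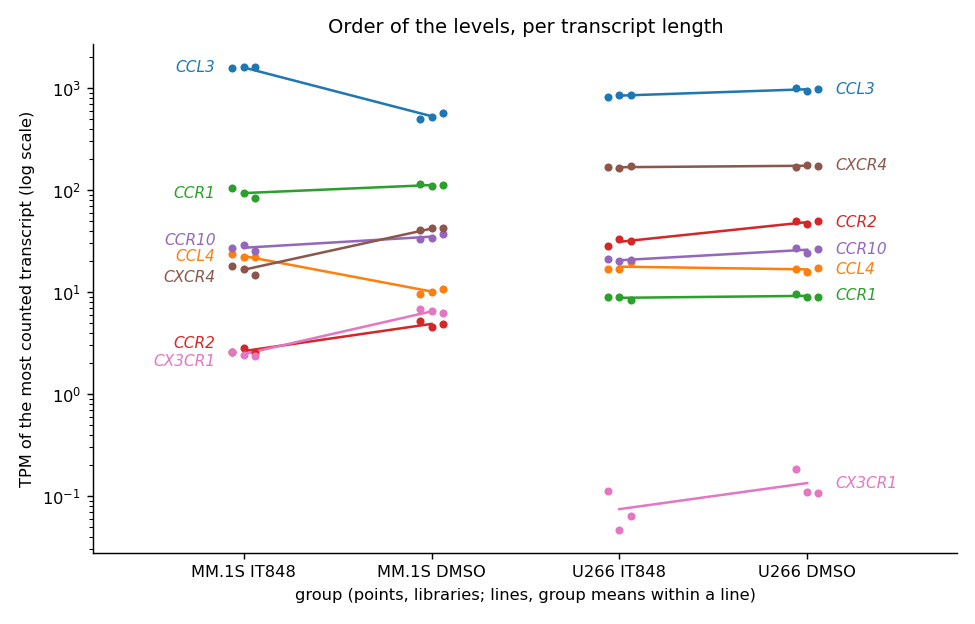
TPM of the most counted transcript (vertical axis, log scale) of the 7 genes in the 4 groups (horizontal axis); points are libraries and lines join group means within a line. CCL3 is highest in every group, and CXCR4 lies below CCR10 and CCL4 in MM.1S with IT848, above both in MM.1S with DMSO and next to CCL3 in both U266 groups.

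Per transcript length, CCL3 was the most abundant of the 7 in every group, with mean TPM of 1580 ± 11.7 in MM.1S with IT848, 528 ± 35.3 in MM.1S with DMSO, 841 ± 20.6 in U266 with IT848 and 972 ± 32.5 in U266 with DMSO (n = 3 each). In MM.1S with IT848 the order after it was CCR1 (93.0 TPM), CCR10 (27.1), CCL4 (22.5), CXCR4 (16.5), CCR2 (2.63) and CX3CR1 (2.45), and the libraries of the last 2 overlapped. In MM.1S with DMSO it was CCR1 (112 TPM), CXCR4 (41.8), CCR10 (34.8), CCL4 (10.1), CX3CR1 (6.44) and CCR2 (4.86), with no overlap between neighbours. CXCR4 thus stood above CCR10 and CCL4 in MM.1S with DMSO and below both with IT848.

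In U266 the order was the same with IT848 and with DMSO: CCL3, CXCR4, CCR2, CCR10, CCL4, CCR1 and CX3CR1. Mean TPM with IT848 were 167 for CXCR4, 31.0 for CCR2, 20.4 for CCR10, 17.7 for CCL4, 8.75 for CCR1 and 0.0741 for CX3CR1. With DMSO they were 173, 48.4, 25.9, 16.6, 9.16 and 0.134 TPM for the same genes, and no neighbours overlapped in either group.

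The partners of these genes were read from fixed lists of the family. Of 17 receptors, 11 passed the filter on low counts. In MM.1S 7 fell and 0 rose, where 19.6% of all genes tested fell and 18.7% rose. The median log2 fold change was −0.67 against −0.01 over all genes tested. Most of the 7 are the members described above: without the members, 2 of 6 tested receptors fell, with a median of −0.63. Besides the 5 described, CXCR5, which guides B cells to follicles, had 0.428 ± 0.115 CPM with IT848 and 1.12 ± 0.365 with DMSO (−1.39 ± 0.26, adjusted p 0.000856 by edgeR). By 1 transcript this fall rested on few reads, 9 to 16 per IT848 library and 18 to 43 per DMSO library. CCR3, an eosinophil receptor for eotaxins, had 7.75 ± 1.07 CPM with IT848 and 11.6 ± 1.79 with DMSO (−0.58 ± 0.20; adjusted p 0.0365), and was not called in 7 of 22 alternatives, with adjusted p of 0.0501 to 0.149. Among them were those without MM.1S DMSO replicate 1 or 2, MM.1S IT848 replicate 1 or 3, or U266 DMSO replicate 1. In U266 only CCR2 and CCR10 of the 11 were called, both of them members, where 9.01% of all genes tested were called. The median there was −0.33 against 0.01 over all genes.

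Of 48 ligands, 14 passed the filter, and in MM.1S 5 rose and 2 fell (median 0.71), where 18.7% of all genes tested rose and 19.6% fell. The 5 were CCL3, CCL3L1, CCL3L3, CCL4 and CCL5, so 3 of them are 1 gene and its copies. CCL5, another ligand of CCR1, had 43.7 CPM with IT848 and 34.9 CPM with DMSO on average (0.32 ± 0.07; adjusted p 0.00276 by edgeR). CXCL10, an interferon-induced ligand of CXCR3, fell to 3.62, 4.14 and 5.45 CPM with IT848, against 8.90, 9.16 and 10.4 CPM with DMSO (−1.11 ± 0.18; adjusted p 0.000431). CXCL16, the ligand of CXCR6, also fell (−0.47 ± 0.09; adjusted p 0.000842). In U266, 0 ligands rose, and the 2 that fell were CCL3L1 and CCL3L3, where 4.03% of all genes tested rose and 4.98% fell. CXCL10 was at 0 counts in all 3 DMSO libraries of U266, so no fold is given there. Overlapping genes listed by RefSeq, ART3 for CXCL10 and BCL9L for CXCR5, can share reads with these genes.

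The ligands of the other receptors were scarce in these cultures of a single cell type. CXCL12, the ligand of CXCR4, averaged 0.380 CPM in MM.1S with IT848, 0.740 in MM.1S with DMSO, 0.261 in U266 with IT848 and 0.276 in U266 with DMSO, and was not called in either line. CCL2, CX3CL1, CCL27 and CCL28 did not pass the filter. In all, 43 ligands, receptors and atypical receptors did not, none with more than 16 counts in any library. Of 5 atypical receptors, which bind chemokines without signalling through G proteins, 2 were tested. ACKR4 rose in MM.1S, with 3.70 ± 0.340 CPM with IT848 and 2.83 ± 0.162 CPM with DMSO (0.39 ± 0.13; adjusted p 0.0254 by edgeR), but 7 of 22 alternatives did not call it. They included those without MM.1S DMSO replicate 1 or 2 or MM.1S IT848 replicate 1 or 3, and that without the 2 libraries with reads of the other line (adjusted p 0.0676 by edgeR), and adjusted p ran to 0.0863.

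**Figure D4:**
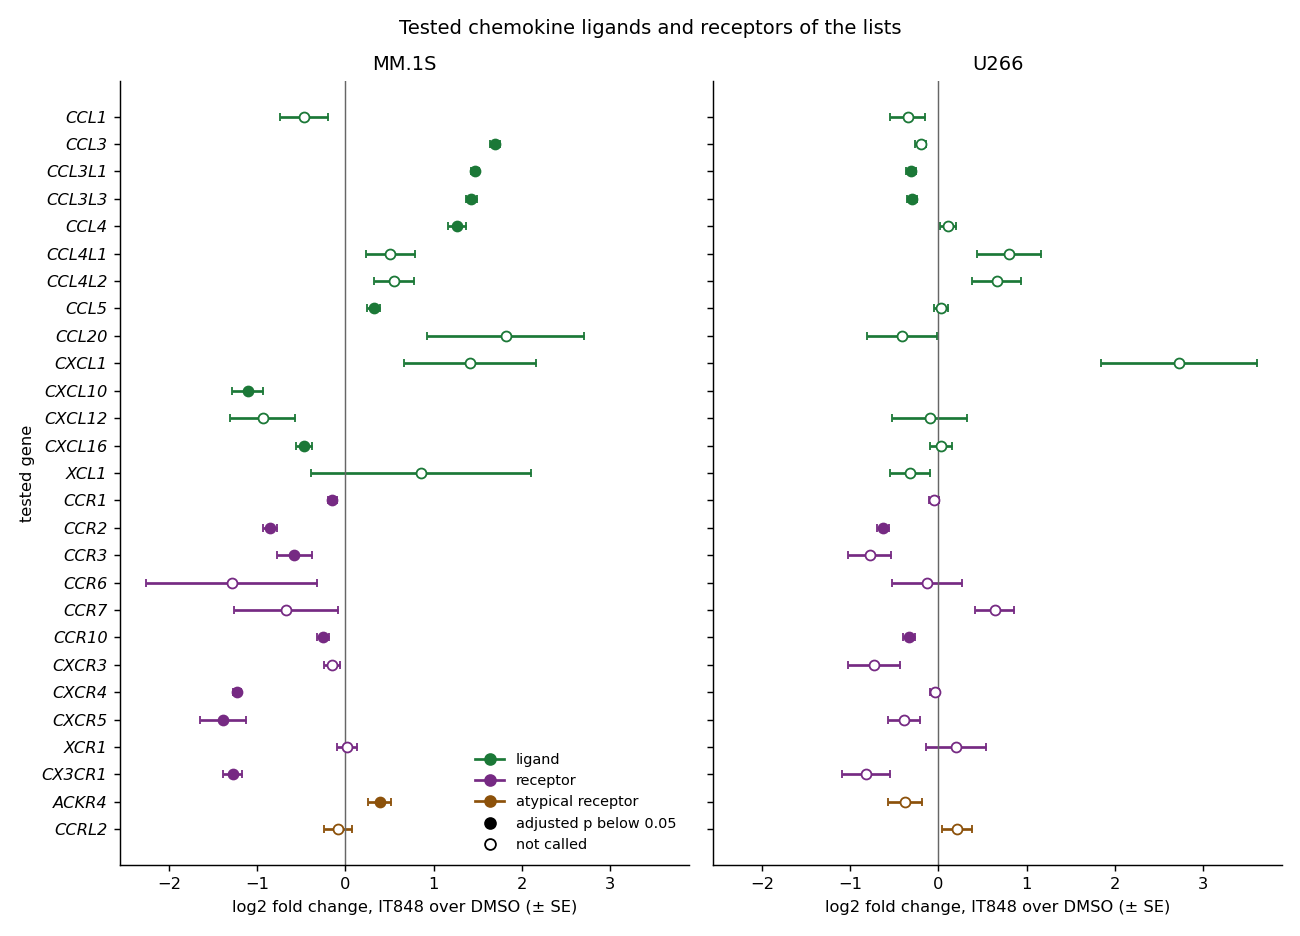
Log2 fold change of IT848 over DMSO (horizontal axis, ± SE) of the tested and listed chemokine ligands, receptors and atypical receptors in MM.1S (left) and U266 (right); filled points passed an adjusted p of 0.05 by edgeR. CXCL10 has no point in U266, where its DMSO libraries were at 0. In MM.1S all 7 filled receptors lie below 0, and in U266 the filled points are CCL3L1, CCL3L3, CCR2 and CCR10.

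Genes that carry or end the receptor signal moved in both directions. Of 30 such genes, 29 were tested, and in MM.1S 10 rose and 7 fell (median 0.02), while in U266 4 rose and 4 fell (median −0.08). Over all genes tested, 18.7% rose and 19.6% fell in MM.1S, and 4.03% rose and 4.98% fell in U266. PTK2B, a kinase activated downstream of chemokine receptors, fell in both lines, by 0.79 ± 0.05 on the log2 scale in MM.1S and by 0.46 ± 0.05 in U266. RGS2, which limits G protein signals, rose in both, by 0.66 ± 0.09 in MM.1S and 0.80 ± 0.11 in U266. RAC2, a GTPase of cell movement in blood cells, fell by 0.28 ± 0.06 in MM.1S and by 0.38 ± 0.06 in U266. In MM.1S the G protein gene GNAI1 was called lower (−0.34 ± 0.11) and RGS13 higher (0.70 ± 0.22), and in U266 RGS16 was called higher (0.68 ± 0.19). These last 3 calls were lost in 4, 3 and 8 of 22 alternatives, with adjusted p by edgeR or DESeq2 of 0.0504 to 0.149. The libraries whose removal ended them were MM.1S DMSO replicate 2 or 3 and IT848 replicate 1 or 2 for GNAI1, MM.1S DMSO replicate 1 and IT848 replicate 3 for RGS13, and any U266 library or MM.1S DMSO replicate 1 for RGS16, which was also lost without the 2 libraries with reads of the other line (0.0808 by edgeR).

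Before treatment the wider family also differed between the lines. CXCR3 had 22.1 ± 0.895 CPM in MM.1S with DMSO and 0.399 ± 0.102 in U266 with DMSO, and XCR1, the receptor of XCL1, 9.80 to 10.3 and 0.109 to 0.328 CPM in the same groups. CCR7, a lymph node homing receptor, was lower in MM.1S, at 0.0712 ± 0.0415 CPM in MM.1S and 0.947 ± 0.0599 in U266. XCL1 and CCL20 were also lower in MM.1S and stayed under 2 CPM in every library. Of the coupling genes, GNAI1 had 28.9 ± 1.46 CPM in MM.1S and 0.214 ± 0.0915 in U266, GNG2, a G protein gamma subunit, 13.1 ± 1.55 and 0.234 ± 0.0151, and PIK3CG, a lipid kinase driven by G proteins, 295 ± 5.14 and 27.9 ± 2.47. Each of these differences passed edgeR's test.

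The genes whose level followed each member most closely across the 12 libraries were found among 5780 genes with a mean of at least 1 CPM and group means at least 2-fold apart. Pearson's r over log2 CPM is a description, since the libraries share 4 groups. For CCL3 they were DKK1, which encodes an inhibitor of WNT signalling and of bone formation, MSRB1 and SCN3A, with r of 0.967, 0.965 and 0.961. DKK1 averaged 4.28 CPM in MM.1S with IT848, 1.13 in MM.1S with DMSO, 2.58 in U266 with IT848 and 2.19 in U266 with DMSO. For CCL4 they were GPNMB, FTL, the ferritin light chain, and CYP19A1, with r of 0.981, 0.980 and 0.978.

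The receptors' closest genes mostly shared the gap between the lines. LAPTM5, MYO6 and the integrin gene ITGB7 followed CCR1, each with r of at least 0.999. CCR2 was followed by SLC47A1, RRAGD and the cholesterol exporter ABCA1 (0.998, 0.998 and 0.997). CXCR4 was followed by NCL, which encodes the nucleolar protein nucleolin, SUPT16H and WDR3 (0.999, 0.998 and 0.998), and CX3CR1 by NUGGC, PSTPIP2 and C10orf10 (0.998, 0.997 and 0.997). CCR10 was nearest to the plasma cell factor XBP1 (0.945), SIPA1 (0.937) and APOL3 (0.933). XBP1 averaged 670 CPM in MM.1S with IT848, 988 in MM.1S with DMSO, 484 in U266 with IT848 and 636 in U266 with DMSO. In the 294 recomputations of these 21 coefficients, none was under 0.915 or moved by 0.05.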

How the data were processed

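Per the labels' protocols, RNA of both lines was taken with a column kit and sequenced as paired reads of 150 bases on an Illumina HiSeq. Per the submitters' processing notes, the tools were bcl2fastq, Trimmomatic 0.36, STAR 2.5.2b, and Subread 1.5.2 with featureCounts, on hg19; the sources used here give neither strand setting nor annotation release. Each of the 12 deposited tables lists 51780 transcripts with a count made by the authors, a deposited FPKM and a deposited TPM that sums to 1000000. FPKM served only to recover transcript length, and TPM only to compare levels between genes.

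Counts were summed per symbol and tested with edgeR 4.0.16 in R 4.3.3 (quasi-likelihood F test, two-sided and robust, 1 mean per group over 12 libraries, TMM scaling, default filter with a minimum count of 10), with Benjamini-Hochberg adjustment over 16782 genes. Fold changes are IT848 over DMSO and MM.1S over U266. Log2 CPM for the pattern search used a prior count of 2. DESeq2 1.42.0 served as an alternative. Sequences were aligned with Biopython 1.88. Besides the 7 members, the copies and line genes, the text names up to 4 called genes per list and IT848 comparison, up to 3 per list between the lines, by size of change, and the 3 most similar genes per member. CCL5 and CXCL12, and GRCh38 neighbours, were added after their values were seen. Some items, a receptor of the family list and its values among them, are not reported here. Members and lists were chosen with earlier results of these data known. Numbers of replicates were not taken to pair libraries. The 95% intervals are of log2 fold changes in edgeR's fit and include the spread between libraries. Reads carry no molecular identifiers.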

Additional observations from a re-analysis of the deposited data

Results flagged for a closer look

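The difference between the responses of the lines, MM.1S minus U266, was called by edgeR's quasi-likelihood test for 12 of the genes named. It was 1.90 for CCL3, 1.17 for CCL4 and −1.19 for CXCR4 on the log2 scale, and 1.79 for CCL3L1 and 1.73 for CCL3L3, which share reads with each other. Those of CCL3, CXCR4, CCL3L1 and CCL3L3 kept their call in every alternative that gives this difference, and that of CCL4 lost it in 1, with the copies summed over all transcripts (0.56, adjusted p 0.0740 by edgeR), and kept it with the copies summed over 1 transcript per gene (0.96, 4.18e-05).

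The other 7 were smaller or rested on few counts. The difference was −0.50 for CXCL16, −1.0 for CXCR5 and 0.77 for ACKR4. It was −0.33 for PTK2B, 0.89 for RGS13, −0.98 for RGS16 and −0.39 for PIK3CG. Those of CXCL16, CXCR5, ACKR4 and RGS13 were not called in 10, 14, 10 and 12 alternatives, with adjusted p by edgeR or DESeq2 of up to 0.136. Without the 2 libraries with reads of the other line, adjusted p was 0.114 for CXCL16 and 0.136 for ACKR4 by edgeR. Leaving out 1 library was enough for each: for CXCL16 any but U266 DMSO replicate 2 and MM.1S IT848 replicates 1 and 2, for CXCR5 any but MM.1S DMSO replicate 2 and MM.1S IT848 replicate 2, for RGS13 any but U266 IT848 replicate 3, MM.1S DMSO replicate 2 and MM.1S IT848 replicate 1, and for ACKR4 U266 DMSO replicate 1 or 3, U266 IT848 replicate 1, MM.1S DMSO replicate 1 or 2, or MM.1S IT848 replicate 3. PIK3CG fell in MM.1S (−0.20 ± 0.05; adjusted p 0.00570 by edgeR), with 256 ± 6.05 CPM with IT848 and 295 ± 5.14 CPM with DMSO. It rose in U266 (0.19 ± 0.05; adjusted p 0.0468), with 31.7 ± 0.256 CPM with IT848 and 27.9 ± 2.47 CPM with DMSO, a call lost in 14 of 22 alternatives, among them size-factor scaling (0.0637), leaving out the 2 libraries with reads of the other line (0.158) and leaving out any U266 library but DMSO replicate 1, or any MM.1S DMSO replicate or MM.1S IT848 replicate 2. In MM.1S its call was lost with the length trend taken out (0.249).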

How the results depend on the processing

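Results were recomputed under 22 alternatives: size-factor scaling, DESeq2, no filter, 1 transcript per gene, each line alone, a replicate block, a length trend taken out, each library left out, both libraries with reads of the other line left out, and copies summed; the last with 1 transcript per gene was added after seeing the data. Of 7 members, 5 to 7 were called in MM.1S over all alternatives, 2 to 4 for the difference of the responses, and 6 or 7 between the lines. In U266, where the main count was 2, DESeq2 called 4, and leaving out single libraries gave 1 to 3. With the replicate block, 7 were called in MM.1S and 3 in U266, where CCL3 was added (adjusted p 0.0257 by edgeR). In MM.1S CCL4L2 was gained (0.0426) and CCR3 lost (0.0501), also by edgeR. Deviations of same-numbered libraries correlated by −0.0708 to 0.179. The IT848 libraries were nearest to the DMSO library of their own number, except replicate 2 of MM.1S and replicate 3 of U266. The correlations were low, and the numbers were not taken to pair libraries. Signs turned for CCR10 in the difference of responses with the length trend taken out (−0.04), CCL4 between the lines with copies summed over all transcripts (0.28; −0.52 over 1 transcript per gene), CXCL16 in U266 without U266 DMSO replicate 3 (range −0.09 to 0.13 over single libraries left out), CCL4L1 in the difference without U266 IT848 replicate 3 (−0.47 to 0.17), and CCL4L2 in the difference without U266 DMSO replicate 1 (0.04), U266 IT848 replicate 3 (0.23), MM.1S DMSO replicate 2 (0.16; range −0.33 to 0.23) or both libraries with reads of the other line (0.04). None of these turned values was called; the cause was not tested. Over all genes, calls in U266 numbered 1512, and 986 without U266 DMSO replicate 3 and 924 without both libraries; those of the difference numbered 2924, and 1712 without both. Depth limits CX3CR1 in U266 (4 to 15 reads by 1 transcript) and the copies of CCL4.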
